A study of Mus musculus with 6 samples.

Results

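Surface proteins that have been used to sort spermatogonial stem cells from the mouse testis were examined through the transcripts of 10 genes: Thy1, Itga6, Itgb1, Cd9, Mcam, Epcam, Cd24a, Prom1, Cd34 and Adgra3. The genes were taken by name, and all probe sets that the platform annotation gives to 1 of them alone were used, 21 of 45037 probe sets and 10 of 18193 genes with a probe set of their own. RNA came from testes of prepubertal mice, whose cells had been parted by magnetic sorting into a Thy1-positive fraction and a Thy1-negative fraction. The labels give no strain, and no genetic change or treatment is given for either fraction. Each fraction had 3 arrays from independent donor preparations, called P1, P2 and P3 in Thy1-positive cells and N1, N2 and N3 in Thy1-negative cells. Both fractions are mixtures of cell types, and transplantation assays in the labels placed more stem cells in the Thy1-positive fraction.

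No protein is known from the surface of spermatogonial stem cells alone, so these cells are enriched by combining antibodies against antigens that they share with other cells. Thy1 is a small glycoprotein held by a lipid anchor, also found on T lymphocytes, neurons and some fibroblasts. Itga6 and Itgb1 encode the subunits of a laminin receptor that holds spermatogonia on the basement membrane of the tubule. Cd9 encodes a tetraspanin, a membrane organiser that binds integrins. Epcam and Mcam encode adhesion molecules, Cd24a a mucin-like protein with a lipid anchor, and Adgra3, once named Gpr125, an adhesion G protein-coupled receptor reported on spermatogonial progenitors. Prom1 and Cd34 mark stem cells of other tissues, and low Cd34 has been used to select stem spermatogonia.

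The promoters below belong to members whose probe set of highest mean kept the fractions apart without overlap and that the RefSeq promoter table of GRCm38.p6 lists. Of the 10 members 7 matched that table, and Thy1, Itga6 and Cd24a did not. Each promoter runs from 250 bases before to 50 bases after the annotated start, read along the gene's strand. That of Cd9 is chr6:125494711-125495010 (minus strand), that of Mcam chr9:44134408-44134707 (plus strand), that of Epcam chr17:87635729-87636028 (plus strand) and that of Adgra3 chr5:50058947-50059246 (minus strand). Capitals mark the GC box GGGCGG on either strand.
Cd9: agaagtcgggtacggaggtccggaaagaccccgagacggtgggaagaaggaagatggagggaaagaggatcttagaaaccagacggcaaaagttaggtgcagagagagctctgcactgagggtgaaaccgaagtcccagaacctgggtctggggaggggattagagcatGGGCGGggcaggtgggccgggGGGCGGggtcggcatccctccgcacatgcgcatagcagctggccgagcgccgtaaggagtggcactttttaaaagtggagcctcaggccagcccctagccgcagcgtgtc
Mcam: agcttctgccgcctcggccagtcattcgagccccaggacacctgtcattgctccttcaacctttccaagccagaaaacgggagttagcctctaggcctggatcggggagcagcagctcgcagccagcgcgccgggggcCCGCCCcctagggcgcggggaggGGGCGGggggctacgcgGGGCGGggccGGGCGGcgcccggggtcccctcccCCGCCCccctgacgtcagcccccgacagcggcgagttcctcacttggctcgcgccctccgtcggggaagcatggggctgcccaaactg
Epcam: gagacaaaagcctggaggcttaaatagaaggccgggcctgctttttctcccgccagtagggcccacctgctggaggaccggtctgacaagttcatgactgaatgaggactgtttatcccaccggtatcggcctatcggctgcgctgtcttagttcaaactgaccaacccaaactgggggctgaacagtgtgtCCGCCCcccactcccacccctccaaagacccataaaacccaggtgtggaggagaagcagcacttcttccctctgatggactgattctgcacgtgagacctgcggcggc
Adgra3: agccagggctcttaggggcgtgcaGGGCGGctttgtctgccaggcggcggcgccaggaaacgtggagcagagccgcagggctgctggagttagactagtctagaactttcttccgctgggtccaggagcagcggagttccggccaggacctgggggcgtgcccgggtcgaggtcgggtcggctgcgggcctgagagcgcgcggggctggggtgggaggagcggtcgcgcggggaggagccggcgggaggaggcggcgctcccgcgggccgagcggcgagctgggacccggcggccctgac
The GC box matched 2 times in the Cd9 promoter, 5 times in that of Mcam and 1 time each in those of Epcam and Adgra3. Of all 32851 promoters of this length in the table, 35.7% held it. Among the listed members not shown, Itgb1 had 1 match and Prom1 had 1 match in 1 of its entries, while Cd34 had none. The GC box is therefore not particular to the members shown. The TATA box TATAAA (13.6% of all promoters), the CCAAT box CCAAT (37.4%) and the ETS site CCGGAAGT (3.89%), also searched on both strands, had no match in these 4 windows. With matches to the GC box alone, no motif overlapped another here. Bases G and C made up 61.3% of the Cd9 window, 72.7% of that of Mcam, 57.0% of that of Epcam and 74.0% of that of Adgra3, beside a median of 52.7% over all promoters. Mcam and Adgra3, which differed between the fractions in opposite directions, thus both had windows rich in G and C.

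Values are log2(intensity + 1) unless an intensity is named, each difference is the Thy1-positive mean less the Thy1-negative mean, and adjusted p comes from limma over all 45037 probe sets, with n = 3 arrays per fraction. The number of arrays limits the precision. A probe set was called where adjusted p was below 0.05, and said to be at low signal where its mean lay below the 25th percentile of the arrays, which was 2.67 to 2.68. Array medians were 15.7 to 17.5 in intensity. The 5' control for 18S ribosomal RNA read 33.7 to 187 in Thy1-positive and 336 to 29178 in Thy1-negative arrays. Of the marker lists, 9 of 11 genes of undifferentiated spermatogonia, 10 of 10 of macrophages, 3 of 8 of germ cells in general and 3 of 7 of T lymphocytes were higher in Thy1-positive cells, beside 16.4% of all genes. In the same cells 9 of 9 Sertoli cell genes, 5 of 7 of peritubular myoid cells and 1 of 4 of Leydig cells were lower, beside 13.2% of all genes, while 1 of 10 endothelial genes was higher and 0 of 6 of interstitial fibroblasts were called in limma, 1 of them with an unadjusted p below 0.05. The germ cell count changed with the arrays used, with 0 called without P1, P2, P3 or N3, 2 without N1 and 8 without N2. With all arrays, 7 of these 8 genes had an unadjusted p below 0.05 in limma. The share of all genes with such a p was not computed, so counts by unadjusted p have no background here. Calls over all probe sets changed too: 5332 were higher and 5201 lower with all arrays, 1639 and 1538 without P3, and 6790 and 6214 without N2. The Sertoli cell count was 2 without P3 or N3, 4 without N1 and 5 without P1, and the Leydig cell count was 2 without N2 and 0 in the other 5 fits that left out 1 array. In all 6 of these fits the macrophage count was 10. The macrophage list mean was 9.83 to 10.4 in Thy1-positive and 3.48 to 3.59 in Thy1-negative arrays, and the part of these cells and of the 18S signal in the results below was not tested.

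Of the 21 probe sets of the surface markers, 3 were called higher and 2 lower in Thy1-positive cells, 5 in all, while 23.4% of all probe sets were called (11.8% higher and 11.5% lower). The share of called markers was thus near the background, and it is not a result about the markers as a group. Their median difference was 0.0025, beside 0.0040 over all probe sets. By the probe set of highest mean, 3 of the 10 genes were higher, 2 lower and 5 not called, beside 29.6% called (16.4% higher and 13.2% lower) of 18193 genes. For 8 of the 21 probe sets the 2 fractions were free of overlap, beside 43.6% of all. Of the 21, 14 lay above the median probe set of the arrays, and these included all 5 that were called. The other 7 were 4 probe sets of Itgb1, 2 of Adgra3 and the single one of Prom1, which were dim in both fractions.

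**Figure D1:**
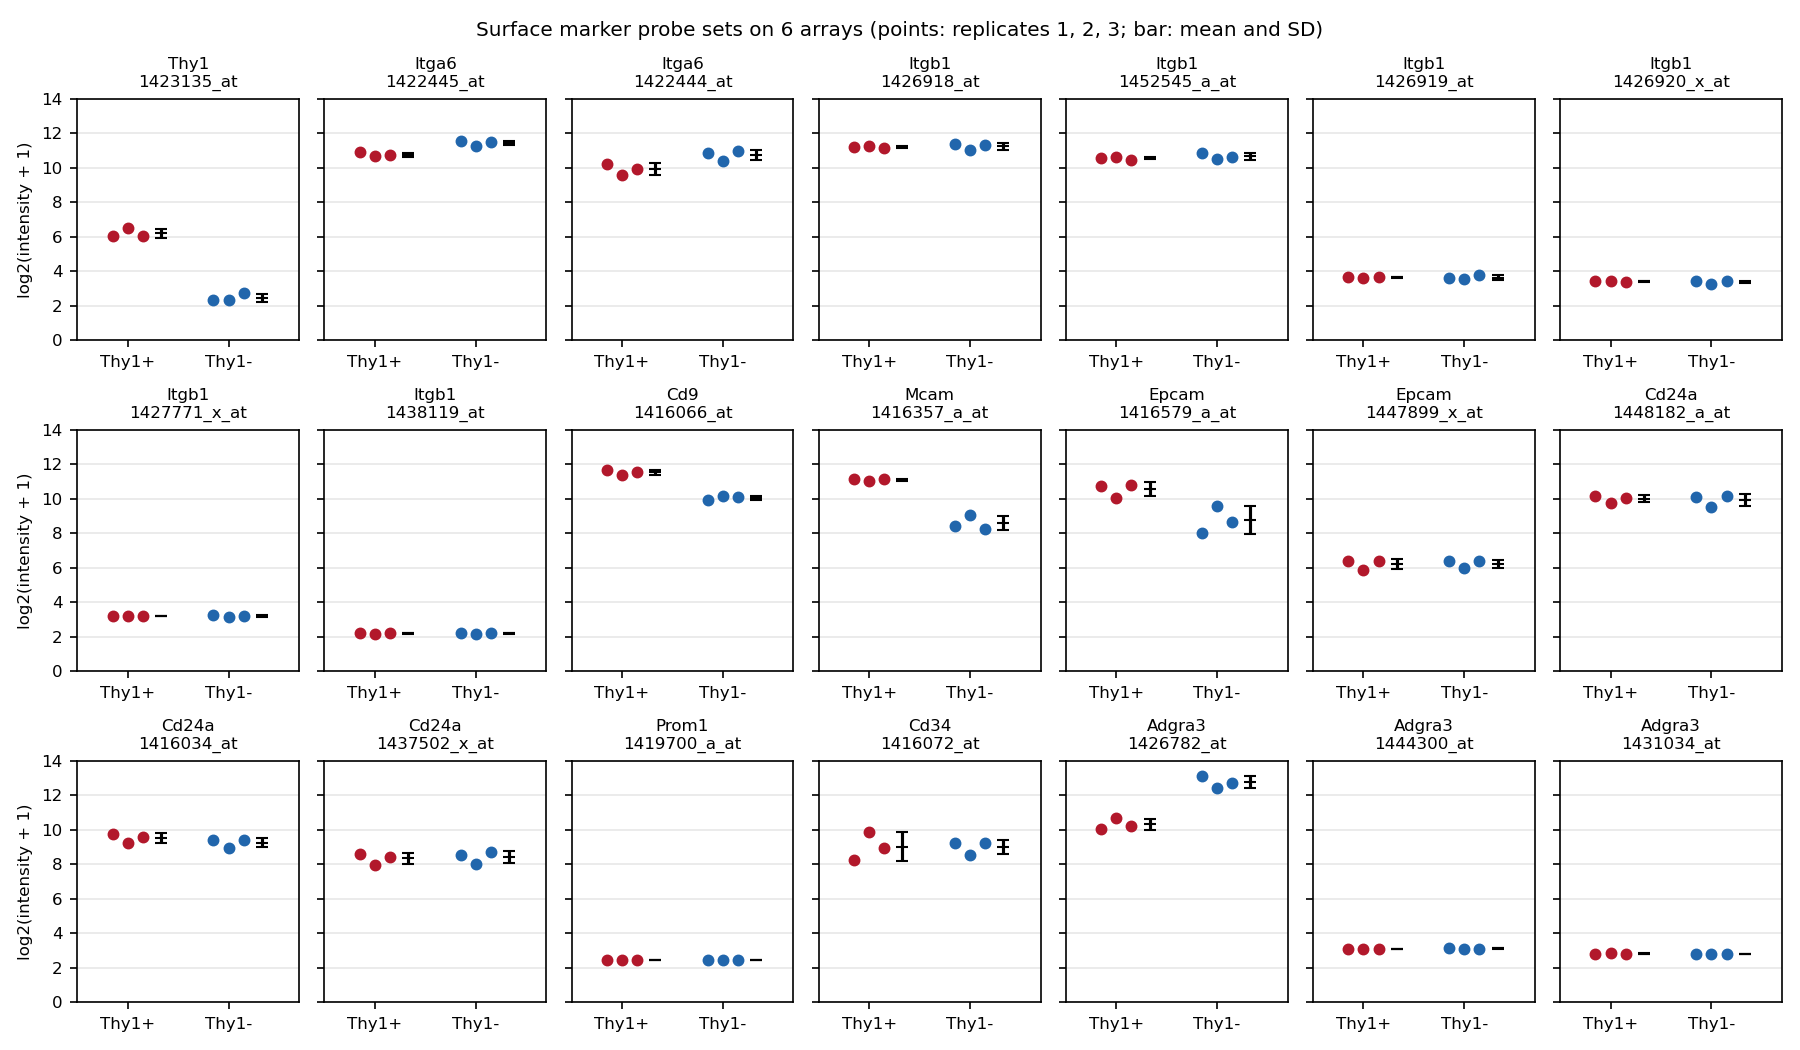
Each panel plots log2(intensity + 1) of 1 probe set on the 3 Thy1-positive arrays (red, left) and the 3 Thy1-negative arrays (blue, right), in the order of the replicate numbers, with the mean and SD beside them. Thy1, Cd9, Mcam and the first Epcam probe set sit higher in Thy1-positive cells, and Itga6 and the first Adgra3 probe set lower, while the probe sets of Cd24a and the remaining ones overlap or are dim.

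Thy1, the antigen used for the sort, had intensities of 65.2, 90.7 and 65.2 in Thy1-positive cells, against 4.1, 4.1 and 5.7 in Thy1-negative cells. Every Thy1-positive array lay above every Thy1-negative one, as the labels require. The mean was 6.20 ± 0.27 (SD) in the Thy1-positive fraction and 2.48 ± 0.23 in the Thy1-negative fraction, which is at low signal. The transcript was therefore 11.4-fold higher or more, with the low values raised to the 25th percentile. Because the cells were chosen by this antigen, the difference of 3.72 (SE 0.19) checks the labels and is not a result. Some genes of T lymphocytes, cells that carry Thy1 in mice, moved with it. The list mean was 4.52 to 4.57 on Thy1-positive arrays and 2.85 to 2.99 on Thy1-negative arrays. Of its 7 genes, 1 was dim enough to be at low signal on Thy1-positive arrays, and 3 on Thy1-negative ones. Cd3g (4.28, SE 0.06), Lat (3.11, SE 0.21) and Cd3d, which encode parts of T cell receptor signalling, rose, with Cd3d at low signal in Thy1-negative cells and at least 5.10-fold higher. Cd2 (1.04, SE 0.30), Cd3e (0.31, SE 0.12), Cd247 (0.015, SE 0.013) and Cd5 (0.0031, SE 0.0078) were not called. The median difference was 1.04 for the T lymphocyte list and 6.95 for the macrophage list. The part of either cell type in the Thy1 signal was not tested.

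The laminin receptor subunits did not rise with Thy1. Itga6 had intensities of 1904, 1633 and 1706 in Thy1-positive cells, against 2962, 2501 and 2914 in Thy1-negative cells, by its brighter probe set. The highest Thy1-positive array lay below the lowest Thy1-negative one. Itga6 fell 1.60-fold (-0.67, SE 0.10, adjusted p = 0.0131 by limma). The call was lost without P3 (-0.66, adjusted p = 0.0658) and without N3 (-0.64, adjusted p = 0.0579). The other Itga6 probe set, at 1209, 765 and 995 in Thy1-positive against 1853, 1378 and 2018 in Thy1-negative cells, also kept the fractions apart but did not pass (-0.83, SE 0.24, adjusted p = 0.0722). In a mixed fraction, fewer cells of a type and less RNA per cell cannot be told apart, here and in all results that follow.

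Itgb1, the beta subunit that pairs with Itga6 and many other alpha subunits, was bright in both fractions. Its brightest probe set had intensities of 2357, 2420 and 2296 in Thy1-positive cells, against 2626, 2073 and 2618 in Thy1-negative cells. N2 lay below all Thy1-positive arrays and N1 and N3 above them, so the fractions overlapped. The difference was -0.04 with a 95% interval of -0.32 to 0.24 (adjusted p = 0.871 by limma). Without N2 it was -0.15 and passed (adjusted p = 0.0272). The second bright probe set gave 1547, 1581 and 1430 in Thy1-positive against 1864, 1444 and 1595 in Thy1-negative cells, and differed by -0.10 (interval -0.38 to 0.19). The remaining 4 Itgb1 probe sets had intensities of 3.6 to 12.7 and differences of -0.0046 to 0.050, and none was called. The log2 ratio of Itga6 to Itgb1 within each array, by their brightest probe sets, was -0.31, -0.57 and -0.43 in Thy1-positive cells and 0.17, 0.27 and 0.15 in Thy1-negative cells. All Thy1-positive ratios were the lower ones, by 0.63, and the 2-sided exact permutation p of 0.1 is the smallest that 20 assignments of 6 arrays allow. Probe sets bind with different strength, so the sign of a ratio does not say which subunit was more abundant.

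Cd9 had intensities of 3295, 2678 and 3019 in Thy1-positive cells, against 975, 1148 and 1109 in Thy1-negative cells. The fractions were far apart relative to their spread, with means of 11.54 ± 0.15 (SD) in Thy1-positive cells and 10.07 ± 0.12 (SD) in Thy1-negative cells. Cd9 rose 2.78-fold (1.47, SE 0.10, interval 1.20 to 1.75, adjusted p = 0.00331 by limma), and it passed in each of the 6 fits that left out 1 array, with differences of 1.40 to 1.55. Cd81, a close relative of Cd9 and also a partner of integrins, went the other way. Its values were 11.04, 11.29 and 10.93 in Thy1-positive cells and 12.65, 12.20 and 12.35 in Thy1-negative cells, so it fell by 1.32 (SE 0.16, adjusted p = 0.00945). Cd151, which binds laminin-binding integrins directly, had values of 10.44, 10.84 and 10.57 in Thy1-positive cells and 12.05, 11.76 and 12.02 in Thy1-negative cells. It fell by 1.33 (SE 0.14, adjusted p = 0.00722), by a probe set whose name ending marks possible cross-hybridisation. Within arrays the log2 ratio of Cd9 to Cd81 differed by 2.79 and that of Cd9 to Cd151 by 2.80. For each, all 3 Thy1-positive arrays lay above all 3 Thy1-negative ones (exact permutation p = 0.1 for each ratio, the smallest possible). This separation followed from the values of the 3 genes, each of which already kept the fractions apart, so the ratios are no further evidence.

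Of 10 measured tetraspanins and CD9 partners, 3 rose and 3 fell, beside 16.4% higher and 13.2% lower of all genes. Their median difference was 0.52, beside 0.010 over all genes. Without probe sets ending in _x_at or _s_at the lower count was 2. Cd53, a tetraspanin of leukocytes, rose by 6.30 (SE 0.15), and Tspan8, reported on stem spermatogonia, by 1.32 (SE 0.13). Cd82 rose by 0.84 (SE 0.12) but was lost without P1 (0.84, adjusted p = 0.0545) and P3 (0.84, adjusted p = 0.0678). Tspan4 fell by 0.56 (SE 0.13) and passed without P2 (-0.69) but not in the other 5 fits that left out 1 array, where it differed by -0.59 to -0.46. The immunoglobulin superfamily partners of CD9, Igsf8 (0.20, SE 0.15) and Ptgfrn (-0.19, SE 0.34), were not called, although Ptgfrn passed without N2 (-0.55).

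Mcam had intensities of 2256, 2118 and 2244 in Thy1-positive cells, against 351, 544 and 309 in Thy1-negative cells. The Thy1-positive arrays hardly varied (11.11 ± 0.05, SD) and the Thy1-negative ones varied more (8.61 ± 0.43, SD). Mcam rose 5.66-fold (2.50, SE 0.23, interval 1.89 to 3.11, adjusted p = 0.00559 by limma), with differences of 2.33 to 2.74 in the fits without 1 array, all of which passed. Mcam, also called CD146, is known from vessel walls and smooth muscle too. The peritubular myoid list was lower in Thy1-positive cells, with a list mean of 6.30 to 6.69, against 8.21 to 8.92 in Thy1-negative cells, and Myh11 (-3.19, SE 0.24), Acta2 (-2.86, SE 0.11) and Tagln (-2.62, SE 0.16), which encode contractile proteins, fell. The endothelial list mean was 4.19 to 4.33 in Thy1-positive cells and 4.07 to 4.44 in Thy1-negative cells, with 2 of 10 genes at low signal on Thy1-positive arrays and 1 on Thy1-negative ones. Among its genes Tek, the angiopoietin receptor, was called (1.28, SE 0.25, adjusted p = 0.0281), and passed without P1 (1.45) and P2 (1.01) but not without P3 (1.37), N1 (1.29), N2 (1.27) or N3 (1.27). The other endothelial genes were split. Kdr, a VEGF receptor at low signal in Thy1-positive cells, differed by -1.95 (SE 0.51, adjusted p = 0.0574) and passed only without N2 (-2.49). Cdh5 (-0.41, SE 0.51), Eng (-0.34, SE 0.32) and Esam (-0.30, SE 0.40) were lower too but overlapped between the fractions. Egfl7 (0.88, SE 0.28) was higher and passed only without N2 (1.14). Pecam1 (0.34, SE 0.26), Vwf (0.18, SE 0.10) and Emcn (0.08, SE 0.12) were higher without a call. The median difference of the endothelial list was 0.04.

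Epcam, an adhesion molecule of epithelia and early germ cells, had intensities of 1753, 1080 and 1808 in Thy1-positive cells, against 257, 779 and 403 in Thy1-negative cells, by its brighter probe set. The lowest Thy1-positive array, P2, still lay above the highest Thy1-negative one, N2. The difference of 1.80 (SE 0.49, interval 0.52 to 3.08) did not pass (adjusted p = 0.0626 by limma). Without N2 it was 2.22 and passed (adjusted p = 0.0228), and it passed in 7 of the 16 alternative settings. The other Epcam probe set, whose name ending marks possible cross-hybridisation, gave 82.2, 57.6 and 82.0 in Thy1-positive against 82.0, 62.5 and 82.0 in Thy1-negative cells and showed no separation (-0.04, SE 0.20, adjusted p = 0.930). The 2 Epcam probe sets therefore disagree. Epcam was high on the same Thy1-negative array as the germ cell list, whose mean was 11.70, 11.63 and 11.70 in Thy1-positive cells and 9.13, 10.76 and 9.64 in Thy1-negative cells. In both, N2 was the highest Thy1-negative array and N1 the lowest. On N1, N2 and N3 the list means of undifferentiated spermatogonia (6.82, 7.80 and 7.32) and peritubular myoid cells (8.21, 8.92 and 8.47) had this order too. It is therefore not particular to the germ cell list. Whether germ cell content accounts for the Epcam values was not tested.

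Cd24a was bright in both fractions by its 3 probe sets. The brightest gave intensities of 1159, 879 and 1055 in Thy1-positive cells, against 1113, 746 and 1130 in Thy1-negative cells. The second gave 866, 605 and 770 in Thy1-positive against 687, 491 and 675 in Thy1-negative cells. The third, with a name ending that marks possible cross-hybridisation, gave 390, 252 and 345 in Thy1-positive against 371, 264 and 426 in Thy1-negative cells. In all 3 the arrays numbered 2 were the lowest of their fraction and the fractions overlapped. The differences were 0.07 (interval -0.50 to 0.63), 0.28 (interval -0.26 to 0.81) and -0.10 (interval -0.78 to 0.58), and none was called. Copies of Cd24a elsewhere in the mouse genome may share probes, so these values are uncertain as a measure of this gene alone.

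**Figure D2:**
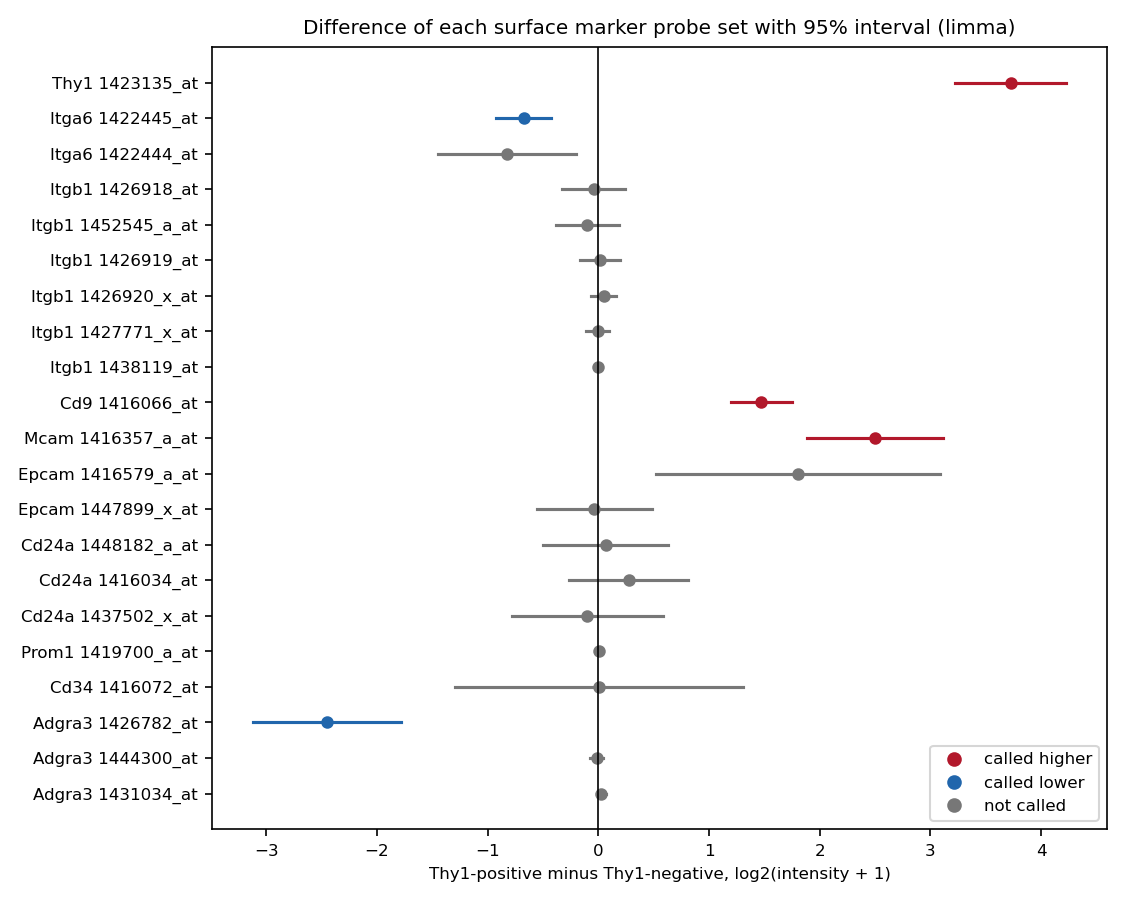
The plot gives the difference of each probe set, Thy1-positive minus Thy1-negative on the log2(intensity + 1) scale, with its 95% interval from limma. Thy1, Mcam and Cd9 are called higher and Itga6 and Adgra3 lower by 1 probe set each, and the interval of Cd34 reaches from -1.30 to 1.31.

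Cd34 and Prom1, the markers borrowed from other stem cell systems, were not called. Cd34 had intensities of 304, 952 and 491 in Thy1-positive cells, against 612, 377 and 608 in Thy1-negative cells. P2 was the highest and P1 the lowest of all 6 arrays, so the Thy1-positive fraction alone spanned the range of both. The difference was 0.0065 with an interval of -1.30 to 1.31 (adjusted p = 0.995 by limma), which is wide, and without single arrays it was between -0.43 and 0.40. Genes of interstitial fibroblasts moved with Cd34: the list mean was 10.19, 11.66 and 10.87 in Thy1-positive cells and 11.28, 10.83 and 11.36 in Thy1-negative cells. For both P2 was highest, followed by N1 and N3 in either order, then P3, N2 and P1. None of the 6 fibroblast genes was at low signal in either fraction, and the part of these cells in the Cd34 values was not tested. Prom1 had an intensity of 4.5 on every array, at low signal in both fractions, so its level was not measured above background and its difference of 0.0025 says nothing about the gene.

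Adgra3, reported on spermatogonial progenitors, was lower in the fraction enriched for stem cells. Its brightest probe set had intensities of 1050, 1644 and 1214 in Thy1-positive cells, against 8910, 5607 and 6872 in Thy1-negative cells. All Thy1-positive arrays lay far below all Thy1-negative ones. Adgra3 fell 5.47-fold (-2.45, SE 0.25, interval -3.12 to -1.78, adjusted p = 0.00707 by limma), with differences of -2.63 to -2.28 in the fits without 1 array, all of which passed. The other 2 probe sets, at intensities of 7.7 to 8.0 and 5.9 to 6.2, were dim in both fractions and differed by -0.02 (SE 0.02) and 0.03 (SE 0.01) without a call. Sertoli cell genes moved in the same direction as Adgra3, with a list mean of 6.03, 7.90 and 6.27 in Thy1-positive cells and 11.46, 10.72 and 11.25 in Thy1-negative cells, and 2 of 9 at low signal in Thy1-positive cells. P2 was the highest Thy1-positive array and N2 the lowest Thy1-negative one for Adgra3 and for the list alike. The same held for the list means of laminins and nidogens (8.20 on P2, 8.17 on N2) and of fibroblasts (11.66 and 10.83). This order is therefore not particular to the Sertoli cell list. The 2 Sertoli cell genes at low signal were Amh, at least 29.2-fold lower, and Fshr, at least 26.9-fold lower. They encode a hormone and a hormone receptor. Wt1 (-4.73, SE 0.80), a transcription factor, fell too, but among the fits without 1 array passed only without P2 (-5.56) and N2 (-4.85). Their part in the Adgra3 signal was not tested. Its relatives Adgra1, at low signal in both fractions, and Adgra2 (-0.07, SE 0.29) were not called.

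**Figure D3:**
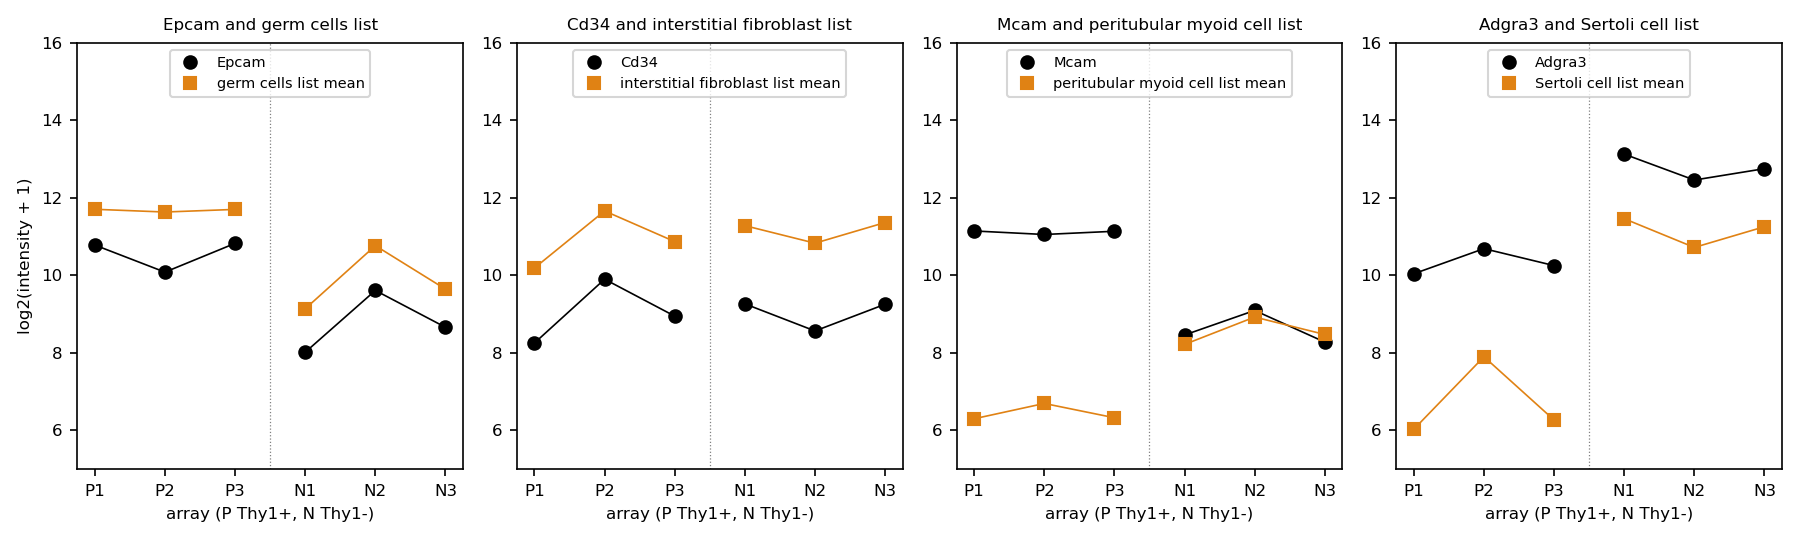
Black points are log2(intensity + 1) of 1 surface marker on each array and orange squares the mean of a marker list, with Thy1-positive arrays (P) left of Thy1-negative ones (N). The heights of black and orange are not comparable; Epcam follows the germ cell list in Thy1-negative cells, Cd34 the fibroblast list and Adgra3 the Sertoli cell list, while Mcam and the myoid list part in opposite directions. The 4 pairs were chosen after the values had been seen.

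Among other integrin subunits, 7 of 22 measured rose and 3 fell, beside 16.4% higher and 13.2% lower of all genes, with a median of 0.23. Itgb2 (4.66, SE 0.14), at least 23.3-fold higher and at low signal in Thy1-negative cells, and Itgal (3.84, SE 0.13) stood at the top. Both are subunits of leukocytes, but these values do not describe all leukocyte subunits. Itgae, which binds E-cadherin, rose by 2.76 (SE 0.57), but among the fits without 1 array passed only without N1 (2.23) and N2 (3.26). Itga8 (-3.26, SE 0.13), Itgb8 (-2.44, SE 0.28) and Itgav (-1.80, SE 0.25) fell, the first being a subunit of mesenchymal cells that pairs with Itgb1. Itgb1 and Itga6 thus lay between these extremes, with differences of -0.04 and -0.67. The higher count was 4 without P2, P3 or N3, and the lower count 2 to 4 over the fits without 1 array. With each array centred on its median the higher count was 13, but in that setting 25863 of all 45037 probe sets were higher.

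Of 12 measured laminin and nidogen genes, which encode the ligands of the receptor and their linkers, 1 rose and 1 fell, with a median of -0.85. Beside 16.4% higher and 13.2% lower of all genes, counts of 1 among 12 genes are no result about these genes as a group. Nid2, a linker of laminin and collagen, rose by 1.67 (SE 0.08, adjusted p = 0.00142). Lama1 fell by 2.91 (SE 0.39, adjusted p = 0.0120), and was lost without P3 (-2.74) and N3 (-2.85). The lower count was 3 without P2, 4 without N2 and 0 without P3 or N3, so it changed with the arrays used. It was 4 with arrays centred on their median or on housekeeping genes, where 5912 and 6032 of all 45037 probe sets were lower. With the 25th percentile as a floor it was 3, where 5945 of 35085 probe sets were lower. When only probe sets above the median were tested it was 6, where 6046 of 22518 were lower. Of the 12 genes, 7 had an unadjusted p below 0.05 in limma, a count for which the share of all genes was not computed.

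Among markers by which stem cells are selected through their absence, most were higher in the Thy1-positive fraction. Of 6 measured, 4 rose and 1 fell, beside 16.4% higher and 13.2% lower of all genes, with a median of 1.62. Ptprc, the leukocyte antigen CD45, had values of 9.11, 9.20 and 9.08 in Thy1-positive cells and 2.50, 2.50 and 2.50 in Thy1-negative cells. The Thy1-negative values are at low signal, which makes Ptprc at least 87.8-fold higher (adjusted p = 5.39e-06). H2-D1, a heavy chain of MHC class I, rose by 3.56 (SE 0.33). H2-K1 (2.11, SE 0.50) and the light chain B2m (1.13, SE 0.24) rose too, but among the fits without 1 array both passed only without N2 (2.60 and 0.92), so the higher count was 2 in the other 5. The probe sets of H2-D1 and H2-K1 carry the name ending that marks possible cross-hybridisation, and without probe sets ending in _x_at or _s_at the higher count was 2. Itgav, low on stem spermatogonia, fell by 1.80 (SE 0.25, adjusted p = 0.0124), and was lost without P1 (-1.74), P3 (-1.74) or N3 (-1.72). Kit, the receptor of differentiating spermatogonia, had values of 9.97, 9.59 and 10.16 in Thy1-positive cells and 9.05, 11.05 and 9.62 in Thy1-negative cells, with N2 above all others. It differed by 0.00038 (SE 0.58, adjusted p = 1.00) and was not called.

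**Figure D4:**
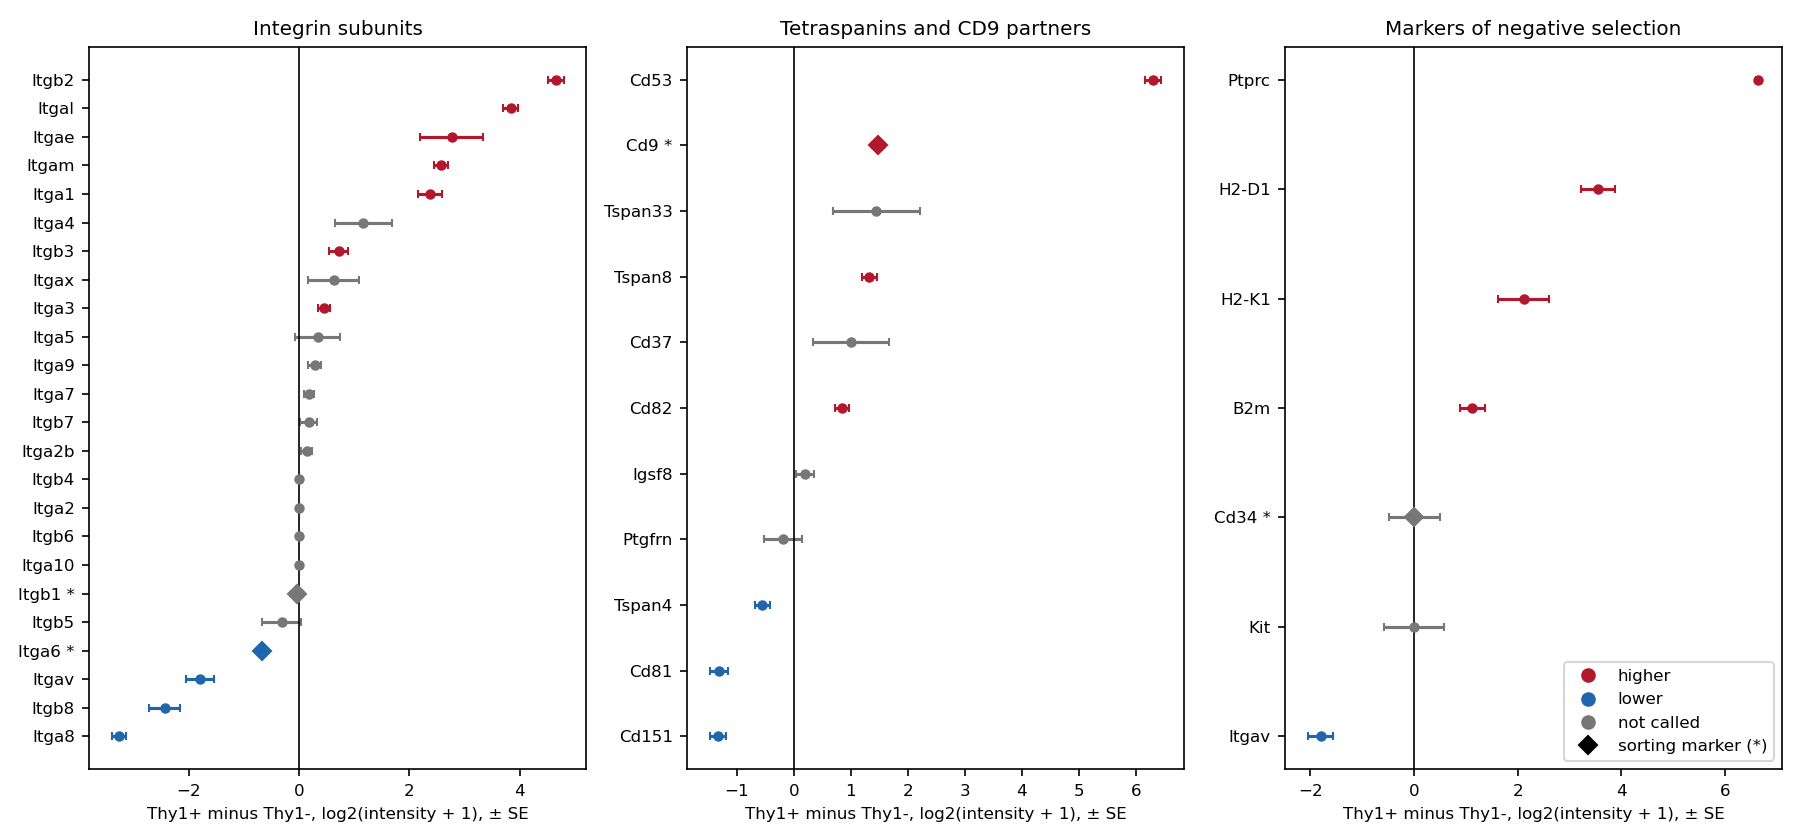
Points give the difference of each gene, Thy1-positive minus Thy1-negative on the log2(intensity + 1) scale, with the SE of limma, for integrin subunits, tetraspanins and CD9 partners, and markers of negative selection; diamonds and asterisks mark Itga6, Itgb1, Cd9 and Cd34. Cd9 (1.47) and Cd81 (-1.32) lie on opposite sides of 0, and Ptprc (6.63) lies far above the other markers of negative selection.

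Other surface genes reported on undifferentiated spermatogonia served as a comparison for the sorting markers. Of 8 measured, 5 rose and 1 fell, beside 16.4% higher and 13.2% lower of all genes, with a median of 2.27. Gfra1 (3.47, SE 0.10) and Ret (3.62, SE 0.24), the receptor parts for GDNF, rose and passed in all 6 fits without 1 array. Csf1r rose by 3.74 (SE 0.24) and is also a macrophage gene. Cdh1, the epithelial cadherin E-cadherin, had values of 9.70, 8.30 and 9.17 in Thy1-positive cells and 5.39, 6.34 and 6.19 in Thy1-negative cells and rose by 3.08 (SE 0.47), but was lost without P3 (3.03) and N3 (3.19). Epha2, an ephrin receptor, fell by 1.04 (SE 0.24), and among the fits without 1 array passed only without N2 (-1.28). Apart from Thy1, the differences of the sorting markers called higher, Cd9 at 1.47 and Mcam at 2.50, were thus smaller than those of Gfra1 and Ret; whether they differ was not tested. Of 7 measured relatives of the members in sequence or function, 1 was called, the Cd34 relative Podxl (1.25, SE 0.22), which among the fits without 1 array passed only without N2 (1.46). With 16.4% of all genes called higher, that count is no result about these relatives.

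For each surface marker, the genes with the most similar course over the 6 arrays were found among 11246 genes, by the root mean square distance of log2 values centred on their own mean. For Thy1 these were Csf1r (distance 0.147) and Clec4a3 (0.161), a lectin receptor of myeloid cells. For Cd9 they were Frmd6 (0.0544) and Shmt2 (0.0705), for Mcam Tm4sf5 (0.121) and Spon1 (0.129), and for Epcam Magea5 (0.0477) and C030034I22Rik (0.0848). For Cd34 they were Fmo1 (0.142) and Pros1 (0.145). For Adgra3 they were Septin10 (0.0562) and Pacc1 (0.0796), for Itga6 Smug1 (0.0295) and Gnpda2 (0.0366), and for Itgb1 Prpf18 (0.0340) and Gabarapl1 (0.0413). For Cd24a they were Scand1 (0.0688) and Zyg11b (0.0732). Those of Prom1, Ttll9 (0.0014) and Lefty1 (0.0014), share with it only that they hardly varied. With 6 arrays in 2 fractions, many genes share such a course, and the names are a description.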

How the data were processed

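RNA of 6 samples was measured on Affymetrix mouse arrays, 1 per sample. The deposited intensity values, linear and given per probe set, were made by the authors with GCRMA per the submitters' processing notes, whereas the sample descriptions name Affymetrix Microarray Suite 5.0 with scaling to a target of 150; the trimmed means of 287 to 293 do not show that scaling. No genome build is given in the sources used here.

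Of 45101 probe sets, 64 controls were left out. Each was turned into log2(intensity + 1) without normalization or filter of its own, so folds of dim genes are understated. The platform table gave 1 gene to 34945 probe sets, several to 932 and none to 9160. Fractions were compared with limma 3.58.1 in R 4.3.3 (lmFit, eBayes, fraction as the single term, 2-sided, Benjamini-Hochberg over all probe sets), after a test on simulated data. In lists each gene was taken by its probe set of highest mean. Intervals are at 95%. For folds against low signal, the 25th percentile of each array served as a floor.

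Named genes were drawn from all members, up to 3 called genes per direction in each list, and the 2 nearest genes of each member. Kit, Gfra1, Itgav, Cdh1 and Csf1r were named whatever their values. Adgra1, Adgra2, Igsf8 and Ptgfrn were added after their values were seen. B2m, Cd2, Cd3e, Cd247, Cd5, Kdr, Cdh5, Eng, Esam, Egfl7, Pecam1, Vwf and Emcn also lie outside this rule. Members, lists and rules were chosen with earlier results of these data known. No array was a copy of another: the most similar pair, N1 and N3, had the same value at 1534 probe sets. The 16 alternative settings are given in the closing section. Ly6a, Cd63 and other listed genes with no single-gene probe set were not analysed here.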

Additional observations from a re-analysis of the deposited data

How the results depend on the processing

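Over 16 alternative settings, the differences of Cd9, Mcam and Adgra3 (brightest probe set) kept their direction and stayed called in 15, and that of Thy1 in 16. The exception was the replicate number as a block, where Cd9 had adjusted p = 0.0669, Mcam 0.0686 and Adgra3 0.0872. With this replicate block 1 surface marker probe set was higher and 0 lower, and 746 and 485 of all probe sets. The labels do not say whether arrays of 1 number share a preparation. Deviations of same-numbered arrays correlated at -0.19, -0.17 and -0.01, and no array correlated best with its own number. These correlations cannot settle the pairing, since a shared preparation need not move both fractions the same way. With each array centred on its median, 9 marker probe sets and 25863 of all were higher, so that 81.4% of called probe sets were higher instead of 50.6%, with a median difference of 0.13 over all. The 7 marker probe sets that passed there and not as reported included 5 below the median probe set, and 1 of these, the dim Adgra3 probe set at intensities of 7.7 to 8.0, turned to 0.11. The shift alone moves such probe sets, which hardly vary. With 1 probe set per gene 3368 were higher and 2628 lower, since fewer were tested. Leaving out 1 array gave 1639 to 6790 higher and 1538 to 6214 lower of all probe sets, and 3 to 4 higher and 1 to 3 lower of the markers, the lowest without P3 or N3; the cause was not tested. Itga6 (brighter probe set) stayed called in 13 settings and Epcam, uncalled as reported, passed in 7. Probe sets near background limit what can be said of Prom1 and of the dim probe sets of Itgb1 and Adgra3.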
